A study of Mus musculus with 16 samples.

Results

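S113 clone 5 and S113 clone 4, a pair of clonal lines that carry the same SOX2 mutant, were compared with each other on mouse bead arrays from Illumina, with 2 of the 16 arrays of the series per clone. Both lines are mouse embryonic stem cells (ESCs) of 129/Ola background that lack the endogenous *Sox2* gene and carry a doxycycline-repressible mouse *Sox2* transgene, a tet transactivator and a DsRed transgene. Both received a PiggyBac plasmid with human *SOX2* mutated at position 113 of the protein, under doxycycline (1 μg/mL) to repress the mouse transgene and hygromycin (300 μg/mL) to select the plasmid, and each clone was picked and expanded as a colony. The other lines, with the same background, were 2 clones with wild-type human *SOX2* (SWT clones 4 and 5), 3 clones labelled as *Sox2* 95 mutants (S95 clones 1, 2 and 4) and 1 line without doxycycline, in which the mouse transgene was on (TSS). The study's text names a double mutant at other positions for its profiled clones of this kind, so which mutant the S95 clones carry is not settled here. Each clone is a single line, and the labels do not say whether its 2 arrays hold separate cultures, so the p-values below measure only the spread between arrays of a line.

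SOX2 is an HMG-box transcription factor that pairs with OCT4 on composite DNA motifs near genes of the pluripotent state, and the mutation of S113 was made to prevent one arrangement of that pair. Cultures of mouse ESCs hold cells of the epiblast type and can also hold cells that turn on the program of extraembryonic endoderm, the lineage of the yolk sac, which is led by GATA and SOX17-group factors and secretes a thick basement membrane of laminin and type IV collagen. ESC lines can also gain or lose chromosomes or parts of them in culture, as may be seen in expression data as a shift of neighbouring genes in one direction.

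The median intensity of the 4 S113 arrays was 108.5 to 109.5, and 48.8% to 50.8% of the probes passed detection at p under 0.05, against 48.6% to 52.5% over all arrays. The 2 arrays of a clone correlated over genes at r = 0.996 in clone 4 and r = 0.997 in clone 5, and the clone means at r = 0.987. All levels below are normalized log2 intensities and all differences are log2 values of clone 5 minus clone 4. Of the markers that define other cell types, *Col3a1* (fibroblasts), *Ptprc* (blood), *Cdh5* (endothelium), *Elf5* (trophoblast), *Pax6* (neural cells) and *Mixl1* (primitive streak) were detected on 0 of the 4 S113 arrays. Other markers of these cell types were detected, *Thy1* (fibroblasts) on 4 arrays, *Cdx2* (trophoblast) on 3, *Gata4* (endoderm) on 2 and *Col1a1* (fibroblasts) and Sox1 (neural cells) on 1 each. The ESC markers *Pou5f1*, *Nanog*, *Utf1*, *Dppa5a*, *Tdgf1*, *Esrrb*, *Sall4* and *Zfp42* were detected on both arrays of both clones.

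Between the clones, 1981 of 9303 genes (21.3%) differed at an adjusted p under 0.05 from limma. In clone 5, 985 genes (10.6%) were higher and 996 (10.7%) were lower, and 194 (2.09%) were at least 2-fold apart, 134 of them higher (1.44%) and 60 lower (0.645%). Outside chromosome 8, 1704 of 8792 genes (19.4%) were called, and 962 (10.9%) were higher and 742 (8.44%) lower. These calls rest on the small spread between arrays of a line, with a median SD of 0.08 in clone 4 and 0.07 in clone 5. When each clone was taken as 1 sample and the spread was that between clones of one construct, no gene passed (smallest limma adjusted p = 1), and an unadjusted p under 0.05 was found for 191 genes, against 3096 in the fit above. That spread came from the SWT and S95 clones alone and holds nothing on how far S113 clones vary. Because both lines carry the same mutant, the calls describe how these 2 lines differ, and not what the mutation does. Leaving out any 1 of the 4 arrays gave 620 to 644 genes lower, and 647 higher without the second array of clone 5, and the genes at least 2-fold apart ran from 47 without background correction to 480 in the deposited log2 values. The same test called 1408 genes between the 2 SWT clones and 1441 to 5142 between pairs of S95 clones. The root mean square difference over all genes was 0.35 between the S113 clones, 0.32 between the SWT clones and 0.31 to 0.73 between S95 clones.

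The *Sox2* transcript was read first, as the gene that was replaced. Its probe read 7.63 and 7.72 on the arrays of clone 4 and 8.08 and 7.99 on those of clone 5. The arrays of the clones did not overlap, but the difference of 0.36 (standard error 0.18) did not pass the test (limma adjusted p = 0.172). The probe read 4.47 to 5.16 on the SWT arrays and 6.39 in TSS. Where in the transcript this probe lies is unknown, so it cannot tell the mouse transgene from the human construct. A second *Sox2* probe was detected on 0 arrays.

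Genes of chromosome 8 were lower in clone 5 along most of the chromosome. Of 511 measured genes, 254 (49.7%) were lower and 23 higher, and the median difference was -0.35. On the other chromosomes the median lay between -0.07 (chromosome X) and 0.04 (chromosome 2), and 5.52% to 15.2% of the genes were lower. That chromosome 8 is lower in clone 5 was known when the comparison was set, so these counts are a description. The share of genes called on each chromosome is plotted beside the median difference.

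**Figure D1:**
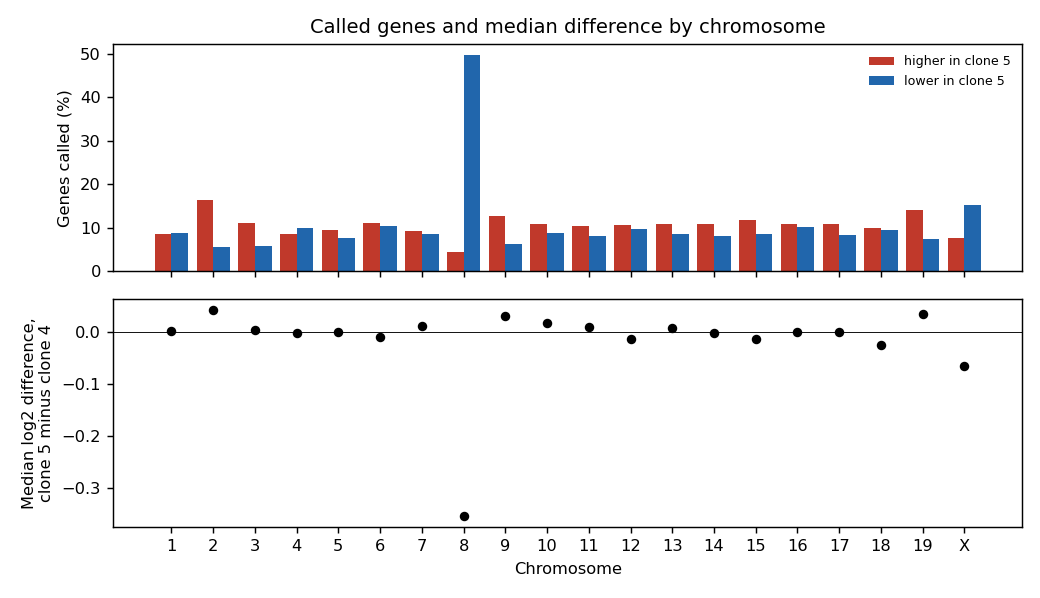
Percent of the measured genes of each chromosome that were higher or lower in S113 clone 5 than in clone 4 (upper panel, adjusted p under 0.05 from limma) and their median log2 difference (lower panel). Chromosome 8 stands apart at 49.7% lower and a median of -0.35.

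The lower part does not start at the first gene. In the order of genes along the RefSeq assembly, the first 108 measured genes, from *Arhgef18* to *Dlc1*, had a median difference of -0.01, with 14 higher and 15 lower. The following 403, from *Cnot7* to the last gene, had a median of -0.42, a ratio of 0.750 on the linear scale, with quartiles of -0.61 and -0.22. Of these 403 genes 239 (59.3%) were lower, 9 were higher, and 371 (92.1%) had a difference below zero. The neighbours at the division were *Lonrf1* (0.54), *Trmt9b* (0.13) and *Dlc1* (0.36) on one side and *Cnot7* (-0.50, a deadenylase subunit), *Pdgfrl* (-0.38), *Mtus1* (-0.60) and *Fgl1* (-0.66) on the other. The division was set where the squared deviation of the differences from the means of its sides was lowest. No range was computed for its place between *Dlc1* and *Cnot7*, which can be known at best to within the measured genes. Soon after it, *Asah1* (-0.05), *Frg1* (0.09) and *Gm5347* (0.02) lie near zero among genes with falls.

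**Figure D2:**
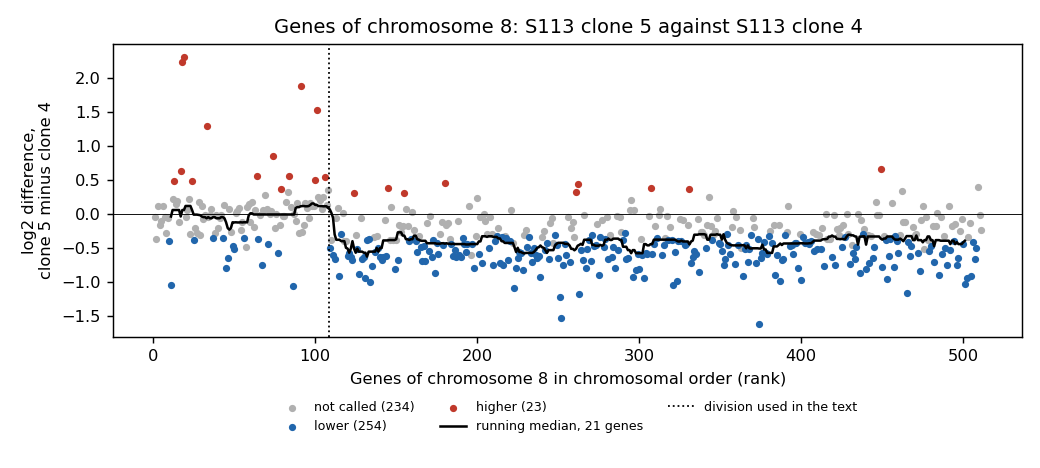
Each point is a measured gene of chromosome 8 in chromosomal order (x axis, rank), with its log2 difference of clone 5 minus clone 4 (y axis), coloured by the call of limma, and the line is the running median over 21 genes. Left of the dotted division the running median stays between -0.23 and 0.16, and right of it it runs down to -0.63.

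Clone 5, and not clone 4, was the line that stood apart from the others. Against the mean of the SWT arrays, the median over the 403 genes was -0.37 and -0.36 on the arrays of clone 5 and 0.05 and 0.07 on those of clone 4, while the arrays of all other lines lay between -0.09 and 0.07. For 102 of the 403 genes both arrays of clone 5 read below all of the other 14 arrays, and for 2 both arrays of clone 4 did. The share of all genes for which this held is not given here, and the stretch was set by the difference between these clones. The difference was smaller among dim genes. Over 3 bins of the genes by level, the median was -0.28 in the lowest, -0.51 in the middle and -0.44 in the highest. DNA copy number was not measured here, and whether the genes are lower in every cell or absent in some cannot be told apart on arrays of whole cultures.

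Of the 8 largest falls of chromosome 8, all but *Got1l1* were in its lower part. *Cdh3*, which encodes P-cadherin, read 6.72 and 7.08 in clone 4, 5.23 and 5.35 in clone 5 and 7.54 to 8.36 on the SWT arrays. The clones did not overlap and clone 5 was lower by a difference of -1.61 (standard error 0.14, limma adjusted p = 1.25e-06). *Nanos3*, an RNA-binding protein needed for the survival of germ cells, read 6.30 and 6.59 in clone 4 against 4.73 and 5.11 in clone 5 (difference -1.53, standard error 0.13, limma adjusted p = 8.28e-07). Both clone 5 arrays lay below the SWT range of 5.73 to 7.12. The uncharacterized gene *4930432K21Rik* was detected in clone 4 alone of the pair and was at least 2.12-fold lower in clone 5. *Syce2*, of the synaptonemal complex of meiosis, differed by -1.18, *Snai3*, a zinc finger factor of the Snail family, by -1.16, *Ttc29*, a protein of the sperm flagellum, by -1.09 and *Cfap20*, a protein of cilia, by -1.04. *Got1l1*, an aspartate aminotransferase-like gene of the first part, differed by -1.05. The differences of the other 7 all lie below the lower quartile of the stretch, which follows from their choice as the largest falls.

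In several lists, part of the lower members lie in this stretch. Of 15 genes of metallothioneins and oxidative stress, 6 were lower and 1 was higher, against 10.7% and 10.6% of all genes, and 4 of the 6 lie there: *Mt1* (-0.58) and *Mt2* (-0.95), which bind zinc and copper, *Hmox1* (-0.68), which degrades heme, and *Nqo1* (-0.98), a quinone reductase. The others were *Gpx2*, a glutathione peroxidase (-1.18), and *Txnip*, an inhibitor of thioredoxin (-0.52). Of 26 genes of DNA replication, 6 were lower and none was higher, against the same shares of all genes, and 4 of the 6 are in the stretch, namely *Mcm5* (-0.40), a subunit of the replicative helicase, *Cdt1* (-0.47), which loads it, *Gins3* (-0.40) and *Orc6* (-0.36). Outside it, *Pcna*, the sliding clamp, differed by -0.38 and *Prim1*, a primase subunit, by -0.56. Outside both shifted stretches (the other is described below), 2 of 22 replication genes and 2 of 11 genes of oxidative stress were lower, against 8.58% of all genes there, and the share of replication genes is near that background. *Cdh1*, which encodes E-cadherin, is the next measured gene after *Cdh3* and read 9.995 and 10.02 in clone 4 and 9.43 and 9.29 in clone 5 (difference -0.64, limma adjusted p = 1.31e-04). Some members whose lists are short were chosen for naming after their values were seen, here and below.

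The largest rises of chromosome 8 lay in its unshifted first part. *Col4a2* and *Col4a1*, which encode the chains of type IV collagen of basement membranes, are transcribed away from each other from a shared region. *Col4a2* read 8.04 and 8.24 in clone 4 and 10.36 and 10.53 in clone 5, a difference of 2.30 (standard error 0.13, limma adjusted p = 1.11e-08). *Col4a1* read 9.39 and 9.50 in clone 4 and 11.64 and 11.72 in clone 5, a difference of 2.23 (standard error 0.09, limma adjusted p = 9.97e-10). In both genes all arrays of clone 5 lay above those of clone 4 and of SWT, which reached 8.12 for *Col4a2* and 9.27 for *Col4a1*. Because the pair moved together, the sequence around their starts is shown, from the RefSeq promoter table (build GRCm38.p6), with 250 bases before and 50 after the first start of each gene. The capitals mark the 78 bases that the windows share, read on opposite strands.
*Col4a2*, chr8:11312555-11312854, plus strand: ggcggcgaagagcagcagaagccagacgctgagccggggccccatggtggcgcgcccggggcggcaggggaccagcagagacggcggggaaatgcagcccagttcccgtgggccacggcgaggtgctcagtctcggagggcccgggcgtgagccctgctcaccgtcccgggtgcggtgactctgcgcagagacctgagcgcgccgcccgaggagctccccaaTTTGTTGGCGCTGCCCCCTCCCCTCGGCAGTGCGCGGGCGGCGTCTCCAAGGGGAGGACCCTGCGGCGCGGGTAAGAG
*Col4a1*, chr8:11312777-11313076, minus strand: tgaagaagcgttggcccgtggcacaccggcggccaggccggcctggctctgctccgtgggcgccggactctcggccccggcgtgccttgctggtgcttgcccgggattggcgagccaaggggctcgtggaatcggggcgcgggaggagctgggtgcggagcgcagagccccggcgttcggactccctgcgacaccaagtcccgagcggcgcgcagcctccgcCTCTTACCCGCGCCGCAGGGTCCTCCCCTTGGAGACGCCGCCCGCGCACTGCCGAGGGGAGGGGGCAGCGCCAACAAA
The windows hold 33 and 37 CpG dinucleotides against a median of 7 over 27025 promoters of that table, and 8.27% of those hold 33 or more. *Nrg1*, the epidermal growth factor family ligand neuregulin, was the third largest rise, at 4.75 and 5.28 in clone 4 and 6.87 and 6.91 in clone 5 (difference 1.88, limma adjusted p = 1.49e-06).

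A further run of neighbouring genes was found after the values were seen, at the end of chromosome 2, in the opposite direction. The last 78 measured genes, from *Slc35c2* to *Polr3k*, had a median difference of 0.47, a ratio of 1.38 on the linear scale, with quartiles of 0.31 and 0.62. Of these 78 genes 52 (66.7%) were higher, none was lower and 73 (93.6%) had a difference above zero. The 646 measured genes before them had a median of 0.01, with 67 higher and 40 lower. On the other chromosomes except 8, the largest step with at least 30 genes on each side was 0.14, on chromosome X. With fewer genes allowed on a side it was 0.30, on chromosome 13, with 12 genes after the division.

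**Figure D3:**
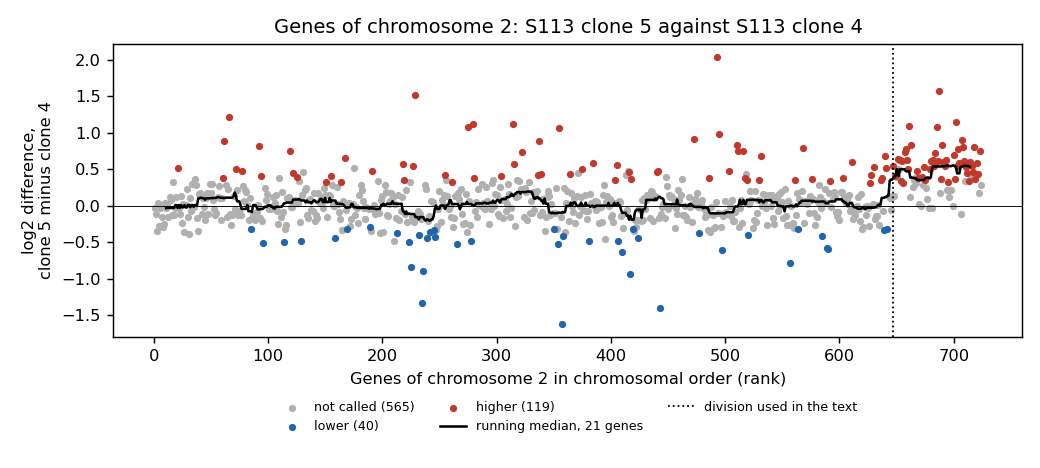
Each point is a measured gene of chromosome 2 in chromosomal order (x axis, rank), with its log2 difference of clone 5 minus clone 4 (y axis), coloured by the call of limma, and the line is the running median over 21 genes. The last 78 genes, right of the dotted division, have a median of 0.47, and the 646 before them 0.01.

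Against the mean of the SWT arrays, the median over these 78 genes was 0.51 and 0.49 on the arrays of clone 5 and 0.02 and 0.06 on those of clone 4. The other lines lay between -0.01 and 0.23, with TSS at the top of that range. For 33 of the 78 genes both arrays of clone 5 read above all of the other 14 arrays, and for none did both arrays of clone 4. Here too the share of all genes is not given, and the run was found from the same values. The genes with the largest differences there, chosen after their values were seen, were *Ctsz*, a lysosomal cathepsin, and *Dido1*, a chromatin reader of ESCs. *Ctsz* read 7.19 and 7.18 in clone 4 and 8.88 and 8.63 in clone 5, a difference of 1.57 (limma adjusted p = 8.05e-07). *Dido1* read 7.10 and 6.997 against 8.39 and 8.02, a difference of 1.15 (limma adjusted p = 3.55e-05). *Sall4*, a zinc finger factor of pluripotency (0.47), *Snai1*, a repressor of E-cadherin (1.10), *Gnas*, the imprinted stimulatory G protein subunit (1.08), *Cebpb*, a leucine zipper transcription factor (0.84), and *Aurka*, a mitotic kinase (0.54), were higher and belong to this run. *Tfap2c*, a factor of trophoblast and germ cells, lies in it too and differed by 0.10 (limma adjusted p = 0.595).

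Outside both stretches, 924 of 8822 genes (10.5%) were higher and 757 (8.58%) lower, and 130 and 51 were at least 2-fold apart.

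Genes of extraembryonic endoderm were higher in clone 5. Of 22 measured members of this list, 18 were higher, none was lower and 14 were at least 2-fold higher, with a median difference of 1.36, against 10.6% of all genes higher and a median of -0.01. None of the 22 lies in either shifted stretch. This list, like the others here, was chosen with earlier results of these data known, so its counts are a description. The summed linear level of the list was 6307 to 6666 on the arrays of clone 4, 21898 to 22472 on those of clone 5 and 3304 to 5905 on the SWT arrays. Clone 4 thus lay above SWT in sum as well, and clone 5 lay farther above. The SWT clones differed from each other in this list too. Against the SWT mean, its median was -0.15 on both arrays of SWT clone 4 and 0.19 and 0.15 on those of SWT clone 5. Members with larger differences included *Lama1* (means of 8.69 in SWT clone 4 and 10.13 in SWT clone 5), *Col4a1* (7.61 and 9.27) and *Amn* (6.52 and 7.89). In S113 clone 5, 18 members read above all SWT arrays on both arrays, and in S113 clone 4 7 did. Lying outside the SWT range was common among higher genes. Of the 962 higher genes outside chromosome 8, S113 clone 5 did so in 737 and S113 clone 4 in 458. More cells with this program in S113 clone 5 and more of its RNA per cell cannot be told apart in these cultures.

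**Figure D4:**
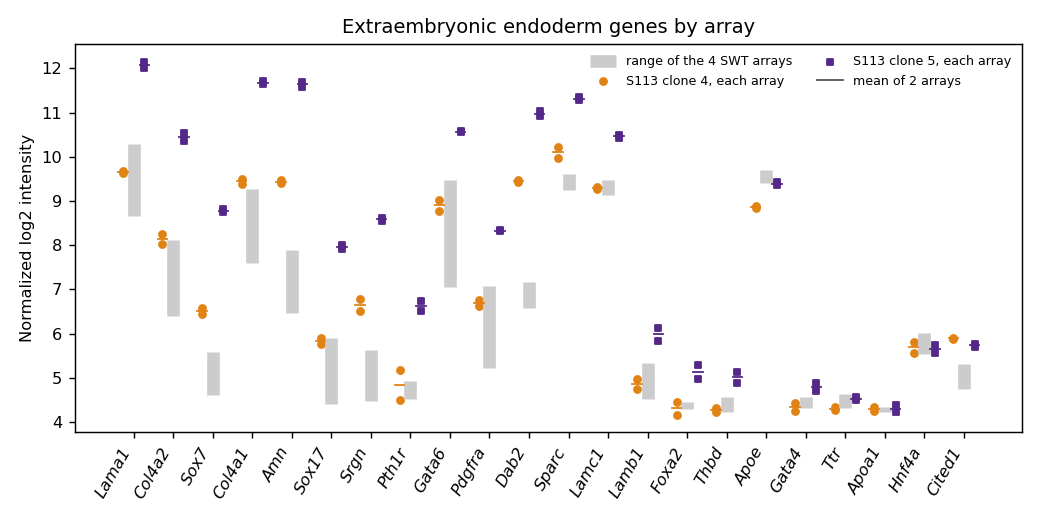
Normalized log2 intensity (y axis) of each measured gene of the extraembryonic endoderm list (x axis), for each of the 2 arrays of S113 clone 4 and of clone 5, with the mean as a short line and the range of the 4 SWT arrays as a grey bar, ordered by the difference. From Lama1 to Lamb1 the clone 5 arrays lie above those of clone 4 by 1.13 or more, and at the right end Ttr, Apoa1, Hnf4a and Cited1 did not pass the test.

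The factors that lead this lineage were among the genes that differed. *Gata6* read 9.03 and 8.78 in clone 4 and 10.57 and 10.58 in clone 5, a difference of 1.67 (standard error 0.14, limma adjusted p = 4.87e-07). *Sox17* read 5.76 and 5.90 in clone 4 and 8.01 and 7.92 in clone 5, a difference of 2.14 (standard error 0.09, limma adjusted p = 9.97e-10). *Sox7*, its close relative, read 6.44 and 6.57 against 8.81 and 8.75, a difference of 2.27 (standard error 0.12, limma adjusted p = 5.65e-09). For *Sox17* the arrays of clone 4 lay at the top of the SWT range of 4.41 to 5.89, and for *Sox7* both clones lay above the SWT range of 4.603 to 5.59. *Gata4* and *Foxa2*, which act after GATA6, were detected on no array of clone 4 and on both arrays of clone 5, at 4.71 and 4.87 for *Gata4* and 4.97 and 5.29 for *Foxa2*, close to the detection limit. *Hnf4a*, a nuclear receptor of visceral endoderm, read 5.57 and 5.82 in clone 4 and 5.73 and 5.57 in clone 5, and the clones overlapped.

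*Lama1*, the laminin alpha chain of early basement membranes, had the largest difference of the list, and *Col4a2* and *Col4a1*, described above, are members too. *Lama1* read 9.63 and 9.68 in clone 4 and 12.02 and 12.16 in clone 5, a difference of 2.43 (standard error 0.12, limma adjusted p = 2.61e-09). *Lamb1* and *Lamc1*, which encode its partner chains, differed by 1.13 and 1.16, and *Sparc*, a collagen-binding protein, by 1.22, all below the median of the list. Clone 4 read within the SWT range for *Lama1* (8.65 to 10.29), *Lamb1* and *Lamc1*, and above it for *Sparc*. Genes outside the list with related products were also higher: *P4ha2*, which hydroxylates collagen prolines, by 1.87, *Serpinh1*, the collagen chaperone, by 1.03, and *Nid1*, *Hspg2* and *Plod2* of basement membranes and collagen crosslinking by 1.03, 1.18 and 1.09. The last 3 were chosen after their values were seen.

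Genes of nutrient uptake and of surface signalling were higher too. *Amn*, a co-receptor for nutrient uptake in visceral endoderm, read 9.40 and 9.47 in clone 4, 11.70 and 11.58 in clone 5 and 6.46 to 7.90 on the SWT arrays, so that both clones lay above SWT. The difference of 2.20 (standard error 0.10) passed at an adjusted p of 9.97e-10 from limma. *Dab2*, an endocytic adaptor, had the same order, at 6.58 to 7.17 in SWT, 9.44 and 9.49 in clone 4 and 10.92 and 11.03 in clone 5 (difference 1.51, limma adjusted p = 3.27e-07). *Pdgfra*, a receptor of primitive endoderm, differed by 1.63, *Srgn*, a granule proteoglycan, by 1.94, and *Pth1r*, the receptor of parathyroid hormone-related protein in parietal endoderm, by 1.79. *Thbd*, which encodes thrombomodulin, was undetected in clone 4 and detected on both arrays of clone 5 at 5.14 and 4.88. *Apoe* differed by 0.52, and there clone 5 (9.43 and 9.35) was nearer than clone 4 (8.88 and 8.85) to the SWT range of 9.41 to 9.70. *Ttr* and *Apoa1*, secreted by visceral endoderm, were detected on no S113 array, and *Cited1* differed by -0.16 without passing.

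On the S95 arrays this list read higher than in either S113 clone. Against the SWT mean the median of the list was 0.34 and 0.53 on the arrays of clone 4, 1.87 and 1.95 on those of clone 5, 2.73 to 4.31 on the S95 arrays and 0.28 and 0.24 on the TSS arrays.

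Of the 12 largest rises outside chromosome 8, *Lama1*, *Sox7*, *Amn* and *Sox17* belong to that list and the others do not. *Hs3st1*, an enzyme that sulfates heparan sulfate, read 7.87 and 7.68 in clone 4 and 10.33 and 10.19 in clone 5, a difference of 2.49 (standard error 0.11, limma adjusted p = 1.01e-09). Both clones lay above the SWT range of 5.66 to 7.02. *Pga5*, a pepsinogen, read 4.75 and 4.89 in clone 4 and 7.23 and 7.39 in clone 5 (difference 2.49, limma adjusted p = 9.97e-10). For *Pga5* the SWT arrays ran from 5.50 to 7.39, so that clone 4 was the line below SWT. *Dram1*, a lysosomal membrane protein of autophagy (2.39), *Flt1*, a receptor of VEGF (2.26), *Aqp8*, a water channel (2.22), and *Hkdc1*, a hexokinase-like enzyme (2.20), were above the SWT arrays in clone 5 on both arrays. *Htra1*, a secreted serine protease, differed by 2.05 and *Flrt3*, an adhesion protein that modulates FGF signalling, by 2.04. *Htra1* read 6.71 and 6.62 in clone 4, below the SWT range of 7.18 to 7.58, and 8.73 and 8.70 in clone 5, above it.

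The core pluripotency factors *Pou5f1* and *Nanog* did not pass the test between the clones. Of 24 measured genes of naive pluripotency, 5 were higher, 3 were lower and the median difference was -0.03, against 10.6% higher, 10.7% lower and a median of -0.01 over all genes, so that the share lower is near that of all genes. *Pou5f1*, which encodes OCT4, read 11.46 and 11.55 in clone 4 and 11.65 and 11.64 in clone 5 (difference 0.14, standard error 0.09, limma adjusted p = 0.297). *Nanog* read 11.59 and 11.41 in clone 4 and 11.42 and 11.43 in clone 5, and the clones overlapped (difference -0.08, standard error 0.12, limma adjusted p = 0.709). The genes that were higher were *Tbx3* (0.70) and *Gbx2* (0.30), transcription factors that sustain self-renewal, *Jam2*, an adhesion molecule (0.68), *Mybl2*, a cell-cycle factor (0.60), and *Sall4*, which lies in the run at the end of chromosome 2. *Gbx2* (limma adjusted p = 0.0277) no longer passed in 7 of 18 alternative settings, and *Tbx3* in 1. *Tbx3* read 8.97 and 8.94 in clone 4 and 9.66 and 9.65 in clone 5, above the SWT range of 8.70 to 8.91 in both clones. The genes that were lower were *Dppa3*, *Nr5a2*, an orphan receptor that binds the *Pou5f1* promoter (-0.53), and *Zfp42*, which lies in the lower stretch of chromosome 8 (-0.30, between the median and the upper quartile of that stretch).

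*Dppa3*, also called Stella, a maternal factor that protects DNA methylation in the zygote and marks naive and germ cells, had the largest difference of these. It read 9.64 and 9.62 in clone 4, 7.84 and 7.63 in clone 5 and 9.16 to 10.46 on the SWT arrays. Clone 4 lay within the SWT range and clone 5 below it, with a difference of -1.89 (standard error 0.15, limma adjusted p = 3.44e-07).

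**Figure D5:**
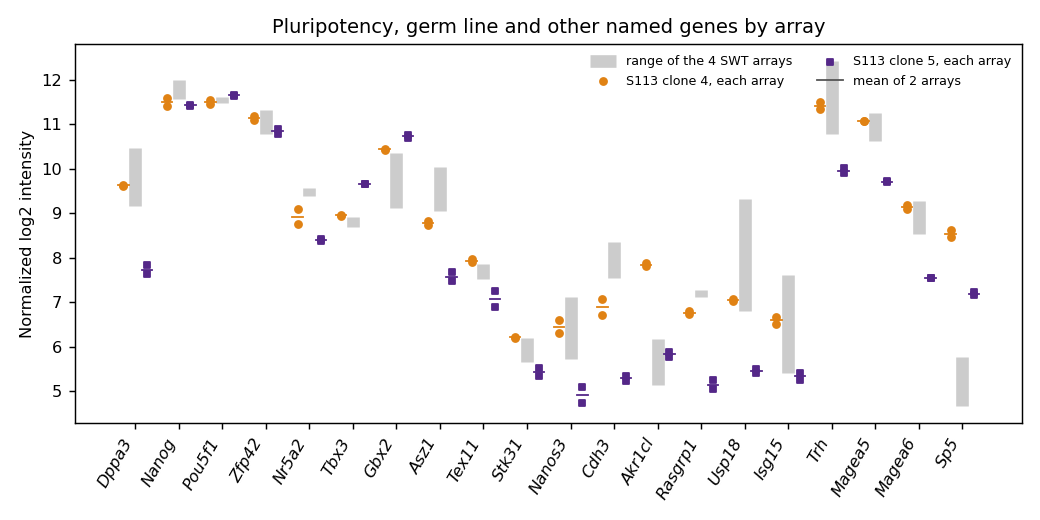
Normalized log2 intensity (y axis) of named genes of pluripotency, the germ line and other lowered genes (x axis), for each of the 2 arrays of S113 clone 4 and of clone 5, with the mean as a short line and the range of the 4 SWT arrays as a grey bar. Nanog and Pou5f1 lie close together in the clones, while the clone 5 arrays of Dppa3 lie below those of clone 4 by 1.89 on average.

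Genes of the germ line were lower where they differed. Of 12 measured members, none was higher and 5 were lower, against 10.7% of all genes lower, and none of the 12 lies in a shifted stretch. *Asz1*, a protein of the piRNA pathway, read 8.83 and 8.73 in clone 4, 7.48 and 7.68 in clone 5 and 9.04 to 10.04 on the SWT arrays (difference -1.20, standard error 0.14, limma adjusted p = 2.58e-05). Both clones were below SWT, with clone 5 the lower. *Tex11*, a meiotic protein of the X chromosome, differed by -0.86, *Stk31*, a testis kinase, by -0.78, *Dazl*, an RNA-binding protein of germ cells, by -0.51 and *Tex19.1*, a protein of germ cells and ESCs, by -0.49. *Nanos3* on chromosome 8 is not a member of the list. *Piwil2*, a piRNA-binding protein (-0.23), and *Ddx4*, at the detection limit (0.17), did not pass.

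Of 5 measured MAGE-A genes on chromosome X, a group chosen after its values were seen, 4 were lower and *Magea4* (-0.49, limma adjusted p = 0.0895) did not pass. *Magea6* read 9.19 and 9.11 in clone 4 and 7.55 and 7.55 in clone 5 (difference -1.60, limma adjusted p = 5.30e-08), and *Magea5* read 11.08 and 11.08 against 9.70 and 9.72 (difference -1.37, limma adjusted p = 1.11e-07). *Magea3* and *Magea2*, named after their values were seen, differed by -1.33 and -1.30. In all 4 genes the arrays of clone 4 lay within the SWT range and those of clone 5 below it. The family is nearly identical in sequence, and whether these probes tell its members apart is unknown, so the 4 values are not 4 independent measurements. Over chromosome X as a whole 52 of 341 genes (15.2%) were lower and 26 higher, with a median of -0.07.

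Of 14 measured genes of the interferon response and MHC class I, 7 were lower and 1 was higher, against 10.7% and 10.6% of all genes, with a median of -0.45. *Usp18*, which removes ISG15 from proteins, read 7.03 and 7.08 in clone 4 and 5.42 and 5.51 in clone 5 (difference -1.59, standard error 0.09, limma adjusted p = 1.11e-08). *Isg15* read 6.68 and 6.52 against 5.42 and 5.25 (difference -1.26, limma adjusted p = 4.78e-05), and *Ifit3* differed by -0.91, with 1 of the 2 arrays of clone 5 detected. *Oasl2* (-0.96), *Ifitm1* (-0.62), *Irf9* (-0.47) and *Ifitm3* (-0.43) were lower too, and *Psmb9*, a subunit of the immunoproteasome, was higher by 0.73. The SWT arrays spread widely for these genes, from 6.81 to 9.33 for *Usp18* and from 5.41 to 7.62 for *Isg15*. *H2-K1* and *H2-D1*, which present antigens, were at the detection limit in both clones.

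The other largest falls outside chromosome 8 shared no list. *Akr1cl*, an aldo-keto reductase-like gene, read 7.88 and 7.82 in clone 4 and 5.89 and 5.77 in clone 5 (difference -2.01, standard error 0.11, limma adjusted p = 1.11e-08). The SWT arrays read 5.14 to 6.17, so that clone 4 stood above SWT and clone 5 did not. The same held for *Tph2*, the enzyme of serotonin synthesis (-1.42), whose clone 4 arrays read 6.82 and 6.82 against an SWT range of 5.24 to 5.81. *Slamf9*, a receptor of the SLAM family (-1.37), read 7.70 and 7.73 in clone 4 and 6.40 and 6.29 in clone 5, both above the SWT range of 5.09 to 6.18. *Sp5*, a target of WNT signalling, read 8.62 and 8.46 in clone 4 and 7.16 and 7.24 in clone 5, with both clones above the SWT range of 4.67 to 5.77 (difference -1.34, limma adjusted p = 9.16e-06). Of 10 measured genes of the WNT response, 3 were higher and 3 lower, against 10.6% and 10.7% of all genes. *Dkk1* (1.22) and *Tcf7l2* (0.89) were among the higher ones. *Rasgrp1*, an activator of RAS, read 6.73 and 6.81 in clone 4 and 5.05 and 5.25 in clone 5, both below the SWT range of 7.11 to 7.28 (difference -1.62, limma adjusted p = 4.17e-08). *Trh*, the thyrotropin-releasing hormone, differed by -1.45, *Gm773* of chromosome X by -1.44 and *Zc3h6*, a zinc finger gene, by -1.40, which ran from -0.49 without background correction to -2.39 in the deposited log2 values.

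The distance of each clone from the SWT mean was compared for the called genes outside chromosome 8. Of the 962 higher genes, clone 5 was the farther in 736 and clone 4 in 226, and of the 742 lower genes, clone 5 was the farther in 497 and clone 4 in 245. The SWT mean does not enter the contrast of the clones, and no test was made of these counts.

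Stress genes of the endoplasmic reticulum were higher in part. Of 24 measured genes of amino acid starvation and ER stress, 11 were higher and 3 lower, with a median of 0.33, and outside both stretches 9 of 21 were higher and 3 lower, against 10.5% and 8.58% of all genes there. *Ddit3*, the factor CHOP, read 6.49 and 6.55 in clone 4 and 7.72 and 7.70 in clone 5 (difference 1.19, limma adjusted p = 2.87e-05), within the SWT range of 7.09 to 8.25 in clone 5 and below it in clone 4. *Atf3*, a stress-induced factor, read 5.17 and 5.51 against 6.35 and 6.34 (difference 1.00, limma adjusted p = 8.06e-06), above SWT in both clones. *Xbp1*, a factor of the unfolded protein response and of secretory cells, differed by 0.80 and *Hyou1*, a chaperone, by 0.93. The genes of serine synthesis in the list, *Phgdh* (-0.46) and *Psat1* (-0.44), and the transporter subunit *Slc3a2* (-0.43) were the 3 that were lower.

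Genes of placenta and trophectoderm went in both directions, with 4 of 17 higher and 7 lower, against 10.6% and 10.7% of all genes. *Krt8*, a keratin of simple epithelia that extraembryonic endoderm also makes, read 9.27 and 9.21 in clone 4 and 10.32 and 10.46 in clone 5 (difference 1.15, limma adjusted p = 4.10e-06). *Cdkn1c*, an imprinted inhibitor of the cell cycle, read 10.36 and 10.48 in clone 4 and 9.04 and 9.14 in clone 5 (difference -1.33, limma adjusted p = 3.48e-07), and *Plac1* of chromosome X differed by -1.23. Both clones lay above the SWT arrays for *Krt8*, *Cdkn1c* and *Plac1*. The trophoblast factors *Cdx2* (-0.41, limma adjusted p = 0.0798) and *Elf5*, detected on 0 of 4 arrays, gave no call. Of 17 imprinted genes 5 were higher and 2 lower, a share lower near that of all genes, the latter being *Cdkn1c* and *Mest*, an enzyme expressed from the paternal allele (-1.13).

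Among epithelial junction genes, 6 of 16 were lower and 1 was higher, against 10.7% and 10.6% of all genes. *Pkp2*, a plakophilin of desmosomes (-0.88), and *Esrp1*, an epithelial splicing regulator (-0.86), were lower beside *Cdh1*. Of the 8 measured genes of the 2-cell-like state, 2 were higher, against 10.6% of all genes, and none was lower. They were *Zscan4c*, which read 9.76 and 9.84 in clone 4 and 10.58 and 10.61 in clone 5 (difference 0.79, limma adjusted p = 4.39e-04), and *Tdpoz4* (0.66). *Vegfa*, the growth factor that binds FLT1, differed by 1.36, with clone 4 below the SWT range of 8.15 to 8.69. *Inhbb*, a subunit of activins, differed by 1.37 and *Fst*, which binds activins, by 1.30. Of 38 cytosolic ribosomal protein genes none was called in either direction, against 10.6% of all genes higher and 10.7% lower, with a median of -0.03. Of 9 fibroblast markers, 2 were lower, against 10.7% of all genes, *Thy1* (-0.44) and *Dcn*, which was not detected in clone 5, and without the first array of clone 5 *Thy1* (-0.29, limma adjusted p = 0.164) did not pass. The summed level of the markers was 2289 to 2418 in clone 4 and 2333 to 2396 in clone 5.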

How the data were processed

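RNA of 8 ESC lines was hybridized to 16 Illumina bead arrays, 2 for each line. The authors deposited scanner intensities per probe, summarized with BeadStudio 3.2 and not normalized, with a detection p-value for each probe. The authors also deposited a table of quantile-normalized log2 values (the submitters' notes name RMA and lumi without their steps), which was used as an alternative. Background correction from the detection p-values, an offset of 16, quantile normalization and the log2 scale came from the function neqc (limma 3.58.1, R 4.3.3). The arrays hold 25697 probes, of which 23978 name 1 gene and 23962 were matched to the RefSeq table of assembly GRCm38.p6 for names, chromosomes and gene order, since the arrays' files give no build. A probe was used if its detection p was under 0.05 on both arrays in 2 or more lines, and a gene took its brightest probe, which gave 9303 genes.

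All 16 arrays entered a limma fit (lmFit, eBayes) with a mean for each line and 8 residual degrees of freedom, and S113 clone 5 was compared with S113 clone 4, two-sided, with Benjamini-Hochberg adjustment over all genes and calls at an adjusted p under 0.05. A fold given as "at least" sets a gene against the detection floor of the clone in which no array detected it. The lines and 31 gene lists, with 672 entries, were chosen with earlier results of these data known, so lists are described by counts and medians without a list test. Named were *Sox2*, *Nanog*, *Pou5f1* and *Dppa3*, the 12 largest rises and falls outside chromosome 8 and the 3 largest rises and 8 largest falls on it among called genes without overlap of arrays, and up to 3 called members per list, by smallest p. On simulated data of 9303 genes with 200 changed between these clones, the fit recovered 55.2%, 95.5% and 100% of genes changed by 0.5, 1 and 2 on the log2 scale, with 12 false calls. In that simulation all lines otherwise shared the same mean per gene, with only the spread between arrays of a line and no shifted stretches. The 12 therefore do not measure how many of the calls in the real data are false. The number of arrays limits the precision. The replicate numbers did not pair the clones (r = 0.007 between the deviations of same-numbered arrays). Promoter sequences were matched by symbol for 77 of 107 named genes.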

Additional observations from a re-analysis of the deposited data

How the results depend on the processing

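The largest dependence was on which spread the test uses. With the spread between clones of one construct and each S113 clone as 1 sample, 0 genes were higher, 0 lower and 0 at least 2-fold apart, and the chromosome 8, chromosome 2 end and extraembryonic endoderm genes called were 0. That fit has fewer samples and residual degrees of freedom, and its spread comes from the SWT and S95 clones alone. With only the 4 S113 arrays, 914 genes were higher and 955 lower, and 1687 of these calls were shared with the 1981 above. The genes at least 2-fold apart were 480 in the deposited log2 values, 91 with an offset of 50 and 47 without background correction, and in these settings the median of chromosome 8 was -0.43, -0.28 and -0.21 and that of the end of chromosome 2 0.57, 0.37 and 0.31. Without a detection filter these medians were -0.13 and 0.27, with a stricter filter -0.37 and 0.50 and with a looser one -0.33 and 0.43. Scaling the arrays by their medians alone gave 688 genes higher and 643 lower. Leaving out each S113 array in turn gave 647 to 686 genes higher, 620 to 644 lower and 189 to 202 at least 2-fold apart, a chromosome 8 median of -0.36 to -0.33 with 177 to 193 genes lower, an end of chromosome 2 of 0.45 to 0.48 with 39 to 41 higher, and 17 to 18 extraembryonic endoderm genes higher. The count of lower genes thus moved by over 1.5 times without any of the 4 arrays, and that of higher genes without the second array of clone 5. An alternative chosen after the data were seen left out both shifted stretches and gave 885 genes higher and 721 lower, and 18 extraembryonic endoderm genes were higher. A fit with the replicate number as a block called 1965 genes, 1913 of them shared. *Nanog*, not called, ranged from -0.1645 without the second array of clone 4 to 0.0111 without the first. Of 104 called named genes, 53 had a difference over 1.5 times smaller without background correction, 29 did with an offset of 50, and 12 had one over 1.5 times larger in the deposited log2 values. From no background correction to the deposited values, *Pga5* ran from 1.10 to 3.67, *Flt1* from 0.96 to 3.41, *Nanos3* from -0.58 to -2.44, *Cdh3* from -0.72 to -2.23 and *Akr1cl* from -1.15 to -2.43, with no change of direction. Of the values of the named genes under all alternatives, 1678 kept their direction and side of the threshold, 204 no longer passed, 104 of them under the spread between clones, 3 newly passed and 1 changed sign.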

Other observations

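Several further genes at least 2-fold apart between the clones were chosen after their values were seen, and no count was made of the groups they belong to. Among higher genes with lysosomal products, *Ctsh*, a cysteine protease, read 5.78 on average in clone 4 and 7.54 in clone 5 (difference 1.76), *Ctsl* differed by 1.29 and *Lgmn*, the protease legumain, by 1.07. Of receptors, *F2r*, which binds thrombin, read 10.30 in clone 4 and 11.87 in clone 5 (difference 1.57), *Tgfbr2* 4.97 and 6.43 and *Plaur*, the urokinase receptor, 5.87 and 7.01. *Lrpap1*, a chaperone of lipoprotein receptors, differed by 1.37 and *Stra6*, a receptor for retinol binding protein, was detected on no array of clone 4 and on both arrays of clone 5, at a mean of 6.32.

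Among lower genes, *Khdc3*, a maternal oocyte protein, read 9.76 in clone 4 and 8.48 in clone 5 against 9.13 to 9.25 on the SWT arrays, and *Smc1b*, a meiotic cohesin subunit, differed by -1.24. *Cdkn2a*, which encodes p16 and ARF, read 7.81 in clone 4 and 6.68 in clone 5 and 8.30 to 8.97 on the SWT arrays, so that both clones lay below SWT. *Fgf13*, of chromosome X, differed by -1.31.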
